A study of Mus musculus with 6 samples.

Results

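The genes described here are those of the cytoplasmic ribosomal proteins, read from 1 list of accessible chromatin intervals in mouse embryonic fibroblasts. A gene was taken as a member when it was protein-coding, lay on an autosome, and had a symbol of the form Rpl or Rps plus a number with an optional a, x or y, or was Rplp0, Rplp1, Rplp2 or Rpsa. The rule found 72 members among 20661 autosomal protein-coding genes: 29 of the small subunit, 40 of the large subunit and the 3 genes of the ribosomal stalk. They lay on 18 autosomes, 14 of them on chromosome 7. Around the members, each gene extended by 5 kb on both sides, the list held 307 of its 323483 intervals.

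Accessibility was measured by ATAC-seq, in which a transposase cuts open DNA and the cut ends are sequenced. The cells carried an M2-rtTA allele and a TetO-Myf6 allele, each heterozygous, in every group, so that doxycycline switches on the myogenic factor Myf6. All 3 groups were kept for 24 h in iMPC medium with bFGF at 10 ng/mL, and each gave 2 libraries. One group had medium alone and one had doxycycline at 2 µg/mL. The last group had the same doxycycline plus F/R/C: forskolin and RepSox, each at 5 µM, together with CHIR99021 at 3 µM. The labels name no age or sex of the embryos, and do not say which promoter drives rtTA or whether libraries of 1 condition were made from different cultures. The interval list joins all 6 libraries and has no value per library. No group was therefore compared with another, no replicate error could be given, and the depth behind each interval is unknown. An interval can stem from 1 group, and a wide one can be several merged peaks. Counts and medians of the members stand beside those of all genes as descriptions, without a test. As a check of the labelled cell type, all 6 fibroblast marker genes with a listed start site had a promoter interval. The counts were 1 of 3 for macrophage and blood, 2 of 3 for endothelial and 2 of 3 for epithelial markers. Over all autosomal protein-coding genes with a listed start the share was 68.6%. Intervals within 1 kb of a gene end were at 10 of 10, 1 of 5, 3 of 5 and 4 of 5 markers, in that order. Over all genes that share was 76.4%, so these few markers separate fibroblasts little from epithelial cells.

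Ribosomal proteins are made in large and roughly equal amounts and are assembled with rRNA into the small subunit, which decodes mRNA, and the large subunit, which forms peptide bonds. Their promoters are active in nearly all dividing cells. Their mRNAs begin with a cytosine followed by a run of pyrimidines, the terminal oligopyrimidine (TOP) tract, through which mTORC1 and LARP1 govern their translation. Several of the genes host small nucleolar RNAs in their introns, and the mouse genome holds many processed pseudogenes copied from their mRNAs.

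Start sites came from the RefSeq promoter table of GRCm38.p6, which gives 250 bases before to 50 after a start and matched 52 of the 72 members. The stretches shown here come from 8 members on which the results turn, in the same build. Each holds 100 bases before the listed start and then 20 bases that begin with the start base, 5′ to 3′ on the gene's strand. Capitals mark matches, on either strand, to the ETS factor core CCGGAA, the YY1 site AANATGGC and the CGCG element TCTCGCGA, and any TOP-like tract. A TOP-like tract was a C within 5 bases of the listed start followed by at least 4 pyrimidines on the sense strand. Rps6, Rps19, Rpl12 and Rpl7a are shown for the CGCG element, Rpl15, Rps10 and Rpl38 for an ETS core with a TOP-like tract, and Rps25 as the sole start without an interval.
Rps6 (chr4:86857348-86857467, - strand): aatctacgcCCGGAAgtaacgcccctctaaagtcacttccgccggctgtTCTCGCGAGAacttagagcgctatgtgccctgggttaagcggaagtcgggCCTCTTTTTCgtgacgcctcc
Rps19 (chr7:24884492-24884611, + strand): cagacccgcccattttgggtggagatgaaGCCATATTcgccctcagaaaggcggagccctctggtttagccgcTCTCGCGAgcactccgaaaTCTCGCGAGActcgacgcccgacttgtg
Rpl12 (chr2:32961612-32961731, + strand): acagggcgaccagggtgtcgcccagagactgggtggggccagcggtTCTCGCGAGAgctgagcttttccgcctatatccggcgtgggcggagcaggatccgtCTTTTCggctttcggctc
Rpl7a (chr2:26910707-26910826, + strand): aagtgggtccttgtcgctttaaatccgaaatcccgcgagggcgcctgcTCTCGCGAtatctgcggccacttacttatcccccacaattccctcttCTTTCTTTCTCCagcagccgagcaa
Rpl15 (chr14:18270967-18271086, - strand): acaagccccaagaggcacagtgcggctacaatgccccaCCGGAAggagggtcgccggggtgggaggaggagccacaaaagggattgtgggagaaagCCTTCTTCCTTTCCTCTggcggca
Rps10 (chr17:27635225-27635344, - strand): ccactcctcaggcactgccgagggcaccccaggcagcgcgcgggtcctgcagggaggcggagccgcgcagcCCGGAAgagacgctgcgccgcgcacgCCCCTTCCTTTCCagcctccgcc
Rpl38 (chr11:114668480-114668599, + strand): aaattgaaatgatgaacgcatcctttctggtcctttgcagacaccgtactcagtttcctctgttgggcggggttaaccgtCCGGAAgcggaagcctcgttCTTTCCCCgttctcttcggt
Rps25 (chr9:44407614-44407733, + strand): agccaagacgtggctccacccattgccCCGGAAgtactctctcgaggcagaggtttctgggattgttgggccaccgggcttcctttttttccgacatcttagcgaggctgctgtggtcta
In the stretch of Rps6 an ETS core, a CGCG element and a TOP-like tract follow each other towards the start. Rps19 carries the CGCG element at 2 places, the second running into the listed start base, and a YY1 site further upstream. In Rpl38 the capitalised tract begins exactly at the listed start base.

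Nearly every member had an accessible promoter. Of the 52 members with a listed start, 51 (98.1%) had an interval overlapping the 300-base promoter window by at least 1 bp, where the share over all autosomal protein-coding genes with a listed start was 68.6% (11292 of 16456). Each of the 51 had exactly 1 such interval, and it covered the start base itself. Among all genes, 732 had more than 1 promoter interval and 65.1% had the start base covered. Genes within the middle range of the members' lengths had a promoter interval in 59% of cases (658 of 1115). Genes of mitochondrial ribosomal proteins, which build the separate ribosome of the mitochondrion, had one in 68 of 69 (98.6%). Ribosome biogenesis genes had one in 18 of 19, and other genes of TOP mRNAs, such as those of elongation factors, in 13 of 14.

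The remaining 20 members have no start in the promoter table. For them an interval within 1 kb of either gene end was counted instead, and all 20 had one, 11 at both ends. Over all 72 members 71 (98.6%) had such a gene-end interval, against 76.4% of all autosomal protein-coding genes. Rps2, a small subunit protein at the mRNA entrance, was the exception. Its listed start lies inside the annotated gene, and an interval of 957 bp covered that start. Of the genes that the symbol rule leaves out, Rps3a1, Fau and Rack1, which also encode proteins of the cytoplasmic ribosome, had promoter intervals of 2247, 1044 and 1276 bp. The 4 X-linked members of the same symbol pattern, Rps4x, Rpl36a, Rpl10 and Rpl39, had promoter intervals of 999, 1095, 1319 and 1413 bp. Of the paralogues with restricted expression, Rpl3l and Rpl10l had no promoter interval and Rpl39l had one of 1161 bp.

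Rps25, a small subunit protein that some viral mRNAs need for initiation, was the member without a promoter interval. Its start lies at chr9:44407714, on the + strand. The nearest interval that followed began at 44408537, 823 bp inside the gene, and was 460 bp wide. The preceding interval in the list ended at 44305838. The stretch of 103 kb between them touches 9 protein-coding genes, among them the upstream neighbour Trappc4. Of the 314896 gaps between neighbouring autosomal intervals, 0.526% were as long, and the median gap was 3 kb. Whether the list is incomplete in this stretch was not tested.

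**Figure D1:**
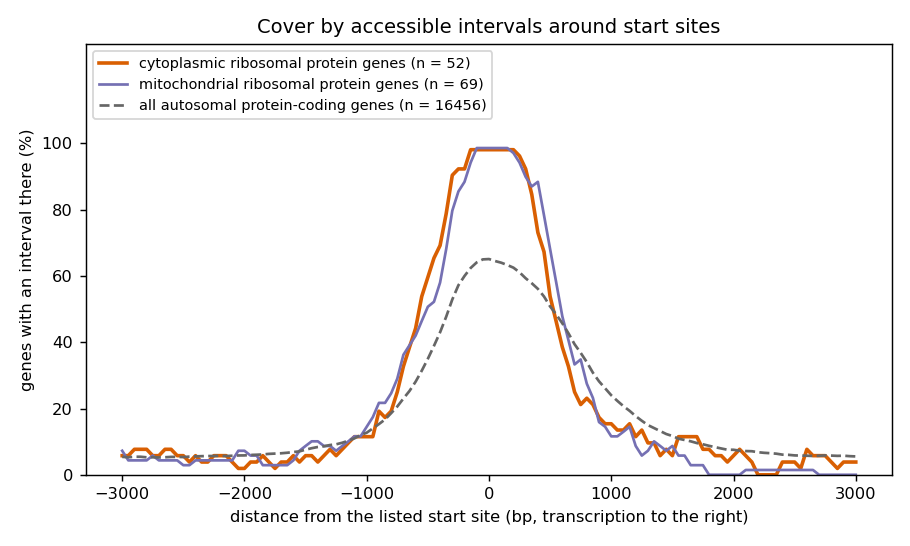
Percent of start sites covered by an interval (vertical axis) at each position from 3 kb before to 3 kb after the start (horizontal axis, bp, in the direction of transcription), for 52 cytoplasmic ribosomal protein genes, all 16456 autosomal protein-coding genes and 69 mitochondrial ribosomal protein genes. Both ribosomal lines reach over 98% at the start. After the start the cytoplasmic line first falls below that of all genes at 550 bp, and the mitochondrial line at 650 bp.

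The promoter intervals of the members were of middling width and seldom wide. Their median was 1119 bp (quartiles 961 and 1285, n = 51 genes), against 1297 bp (987 and 1649, n = 11292) for all genes with a promoter interval. Only 1 of the 51 exceeded the upper quartile of all genes, 12 exceeded the median and 14 lay below the lower quartile. Genes of similar length had a median of 1250 bp, mitochondrial ribosomal protein genes 1180.5 bp, ribosome biogenesis genes 1323 bp and other TOP mRNA genes 1523 bp. Widths of the 20 members without a listed start were taken at the gene ends, with a median of 1238.5 bp, and are not on the same footing.

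**Figure D2:**
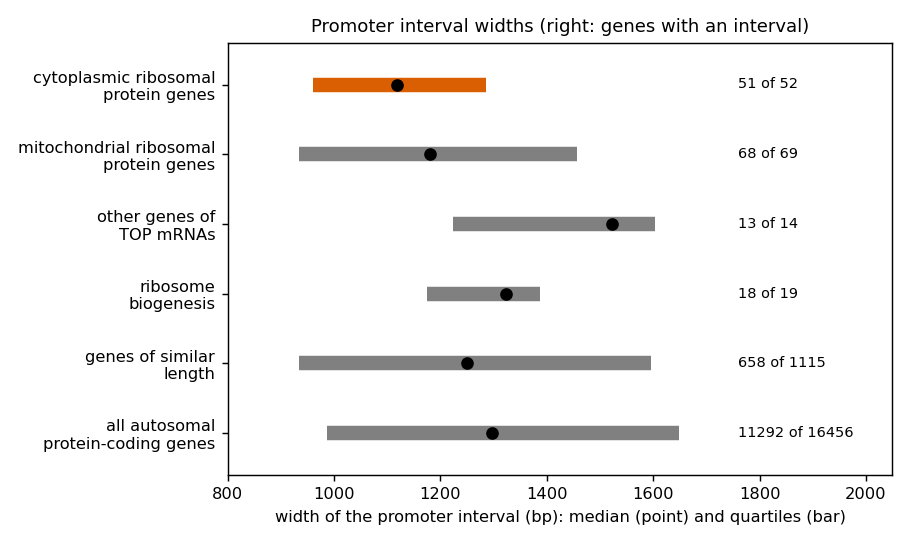
Median promoter interval width in bp (points) with lower and upper quartiles (bars) for the members and the comparison lists, with, at the right, the number of genes with a promoter interval of those with a listed start. The members sit at 1119 bp against 1297 bp for all genes, and the spans of the lists overlap.

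Among small subunit genes the median was 1099.5 bp over 20 promoters. Rps12 was the widest at 1894 bp, and was the member above the upper quartile of all genes. Its interval reached 1378 bp upstream of the start and 515 bp downstream. Rps15 was the narrowest small subunit promoter at 833 bp, yet the intervals over its short gene covered 58.3% of it. Rps6, the substrate of S6 kinases downstream of mTOR, had 1252 bp, and Rpsa, also known as the laminin receptor precursor, had 1147 bp. Rps14, a small subunit gene lost in a human myelodysplastic syndrome, had a gene-end interval of 1256 bp.

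Large subunit genes had a median of 1144 bp over 29 promoters and held both ends of the rest of the range. Rpl15 had 1605 bp, Rpl10a 1597 bp, Rpl9 1522 bp, Rpl7a 1519 bp and Rpl34 1455 bp. The intervals of Rpl15, Rpl9 and Rpl7a also held a start or end of another protein-coding gene, namely Nkiras1, Lias and Med22. Rpl41, which encodes the smallest ribosomal protein, had 615 bp, the narrowest of all members. Rpl13 followed with 645 bp, Rpl12 with 704 bp, Rpl24 with 745 bp and Rpl28 with 827 bp. Rpl38, whose loss in mice disturbs the axial skeleton, had 1119 bp. The stalk genes, whose proteins recruit translation factors to the ribosome, were close to each other: 956 bp for Rplp0, 951 bp for Rplp2 and, at a gene end, 958 bp for Rplp1.

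Among genes whose human counterparts are mutated in Diamond-Blackfan anaemia, an inherited failure of red cell formation, 8 with a listed start were examined. Rps19, the one most often mutated, had 1247 bp, Rps26 1155 bp, Rps24 1115 bp, Rps7 1065 bp and Rps10 1020 bp. In the large subunit, Rpl35a had 1372 bp. Rpl5 and Rpl11, which with 5S rRNA bind Mdm2 when assembly fails, had 1223 and 1061 bp.

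**Figure D3:**
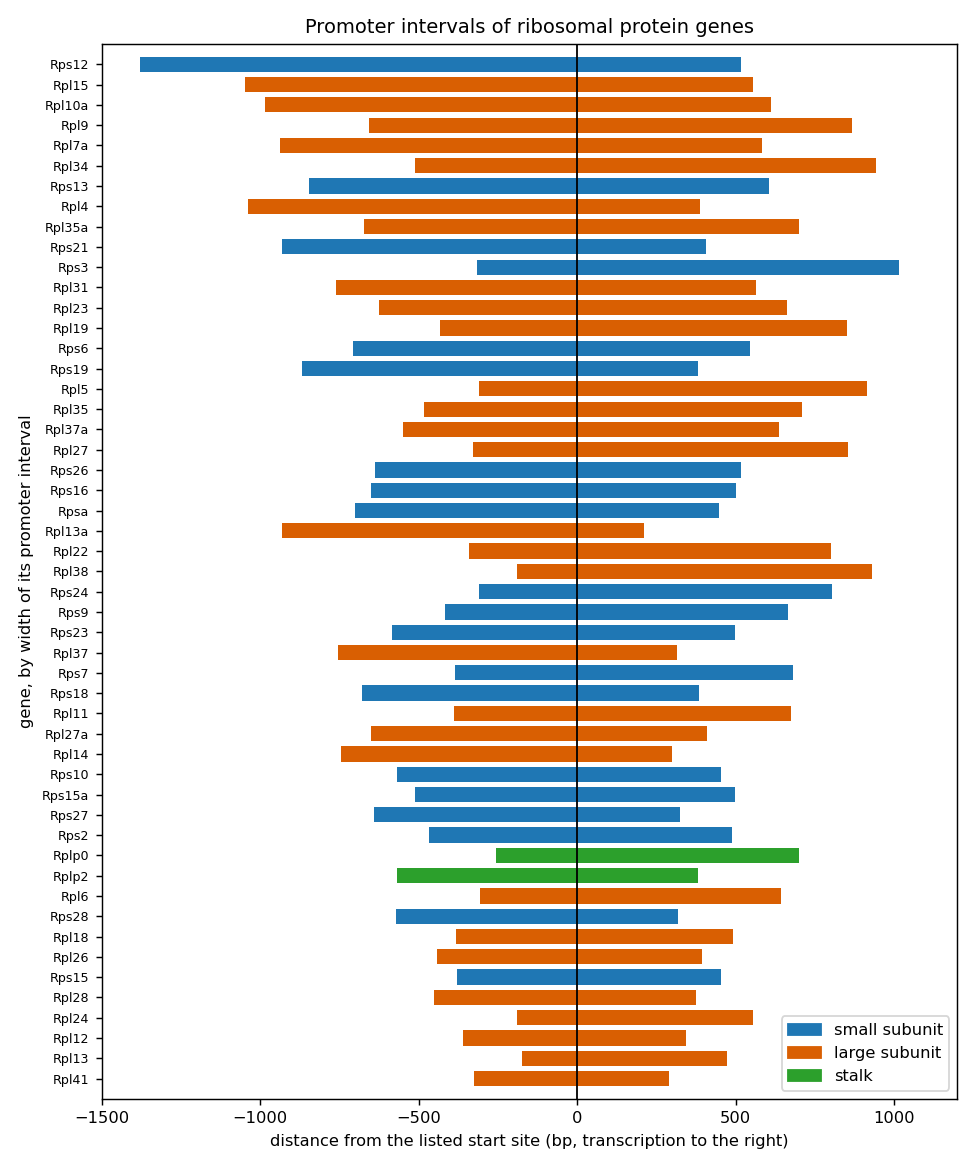
Extent of each of the 51 promoter intervals relative to the listed start site (horizontal axis, bp, transcription to the right), 1 bar per gene, ordered by width and coloured by subunit. Rps12 at 1894 bp reaches furthest upstream, and Rpl41 at 615 bp is the narrowest.

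The lower width lay downstream of the start. Member intervals reached a median of 516 bp into the gene (quartiles 399 and 676), against 736 bp for all genes, and 567 bp upstream (380 and 704), against 480 bp. At 600 bp after the start 38.5% of the 52 members were still covered, against 45.7% of all genes, although the start itself was covered in 98.1% and 65.1%. At 600 bp before it the shares were 44.2% and 28.1%. The midpoint of the interval lay at -18 bp in the median member and at 106 bp in the median gene, and upstream of the start in 28 of 51 members (54.9%) against 34.2% of all genes. Among small subunit genes it lay upstream in 14 of 20 and among large subunit genes in 13 of 29. In genes of similar length the median reach was 656 bp downstream and 499 bp upstream. Their median midpoint was at 53.2 bp, and 43% lay upstream. Mitochondrial ribosomal protein genes reached 589 bp downstream and 512 bp upstream, with a median midpoint at 49.5 bp and 44.1% upstream. The values of both lists lie between those of the members and of all genes, so part of the shift is shared. The median midpoint was at 19.5 bp in other TOP mRNA genes and at 175 bp in ribosome biogenesis genes. Rps12 lay furthest upstream of the 51, with its midpoint at -432 bp, while Rpl38 reached 190 bp upstream and 928 bp downstream.

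Several promoter intervals were shared with a neighbour. In 8 of 51 members (15.7%) the interval also held the listed start of another protein-coding gene, against 13.5% over all genes, and all 8 pairs were transcribed away from each other. The starts lay 10 bp apart for Rps28 and Ndufa7, 66 bp for Rpl9 and Lias, 67 bp for Rps27 and Rab13, 69 bp for Rpl18 and Sphk2, 71 bp for Rpl12 and Lrsam1, 135 bp for Rps18 and Vps52, 165 bp for Rpl7a and Med22, and 267 bp for Rpl35a and Iqcg. Such an interval cannot be split between the 2 genes. Counting gene ends as well, 15 of the 72 members had an own interval that reached another protein-coding gene. The share over all genes on this wider count is not given here. Without these 15 members the median promoter width was 1130.5 bp.

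The promoters differed from other accessible promoters in their letters. A TOP-like tract was found in 25 of 52 members (48.1%), against 20.1% of the 11292 accessible protein-coding promoters and 21.7% of the 69 mitochondrial ribosomal protein promoters. Other TOP mRNA genes had it in 7 of 14. The tract ran over 9 bases in the median member, from 5 to 20, and the longest was in Rpl27a. With the C required at the listed start base itself, 12 members (23.1%) held the tract, against 2.36% of accessible promoters and no mitochondrial one. The 27 members without a match include Rps25. A listed start a few bases off would hide a tract, so these counts describe the annotation together with the sequence.

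The ETS core CCGGAA was present in 26 of 52 members (50%), against 25.6% of accessible promoters, 56.5% of mitochondrial ribosomal protein promoters and 14.9% of all 32851 promoters in the table. Other TOP mRNA genes shared it in 7 of 14. ETS cores and TOP-like tracts occurred together in 16 members (30.8%), against 5.93% of accessible promoters, Rps6, Rpl15, Rps10 and Rpl38 among them. The CGCG element TCTCGCGA, known to be bound by BANP when unmethylated, stood in 9 members (17.3%), against 2.07% of accessible promoters, 1.45% of mitochondrial ones and 0.995% of the table. The 9, named after the counts were known, were Rps6, Rps15a, Rps19, Rps28, Rpl7a, Rpl12, Rpl26, Rpl27a and Rpl35. In 7 of the 9 a match lay within 100 bases before the start. YY1 sites were found in 17.3% of members, 7.66% of accessible promoters and 30.4% of mitochondrial ribosomal protein promoters. In the 100 bases before the start the shares were 11.5%, 1.64% and 2.9%, so the order of the members and the mitochondrial promoters depended on the window. Of the 14 other TOP mRNA promoters 28.6% held a YY1 site in 300 bases and none in the 100 bases. On the sense strand alone 4 of the 9 members with a YY1 site held one.

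**Figure D4:**
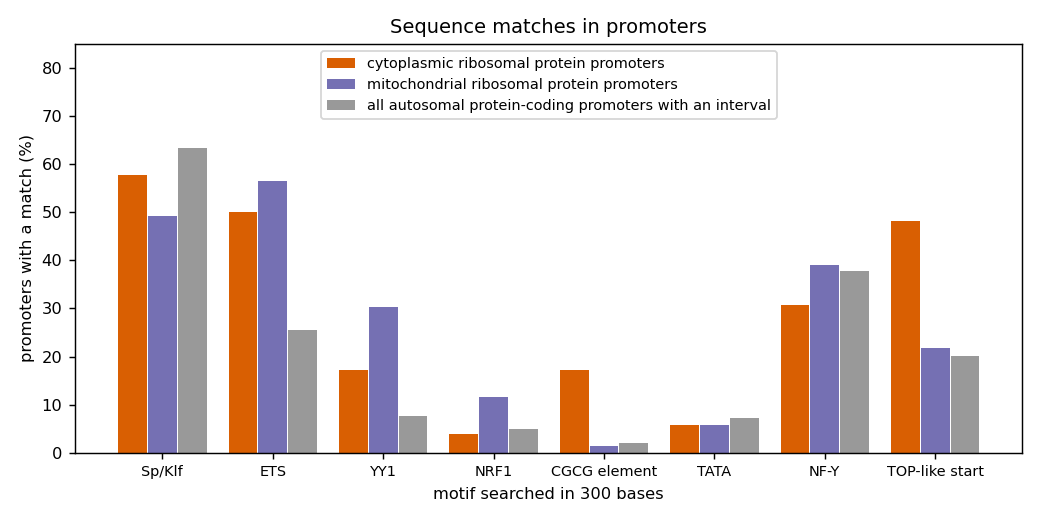
Percent of promoters (vertical axis) with a match to each motif (horizontal axis) in 300 bases, as bars for 52 members, 69 mitochondrial ribosomal protein promoters and 11292 accessible protein-coding promoters. Members exceed accessible promoters for the ETS core (50% against 25.6%), the CGCG element (17.3% against 2.07%) and the TOP-like start (48.1% against 20.1%). They also do for the YY1 site (17.3% against 7.66%). Mitochondrial ribosomal protein promoters are higher still for the ETS core (56.5%) and the YY1 site (30.4%).

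Other motifs had no higher share in members than in accessible promoters as a whole. The Sp/Klf box GGGCGG was in 57.7% of members and 63.3% of accessible promoters, and the NF-Y box CCAAT in 30.8% and 37.7%. The NRF1 site GCGCATGC was in 3.85% and 4.91%, where mitochondrial ribosomal protein promoters had 11.6% and all promoters 2.71%. TATAAA was in 5.77% and 7.3%, in Rplp0, Rps2 and Rps28. In the 100 bases before the start no member held TATAAA, against 2.93% of accessible promoters. Over the table as a whole, Sp/Klf boxes were in 35.7%, NF-Y boxes in 37.4%, YY1 sites in 6.05%, TATAAA in 13.6% and TOP-like starts in 18.3%. Median GC content was 58.7% in members and 61% in accessible promoters, while the observed over expected CpG ratio was 0.917 and 0.747. Members with the CGCG element had a median interval of 1059 bp and the others 1130.5 bp. Members with a TOP-like tract had 1084 bp against 1149.5 bp. The medians with and without were 1008 and 1130.5 bp for YY1 sites, 1065 and 1148 bp for ETS cores. For NF-Y boxes they were 1082 and 1152 bp, and for TATAAA, in 3 members, 956 and 1143 bp. Sp/Klf boxes (1145.5 and 1084 bp) and NRF1 sites, in 2 members (1205 and 1115 bp), went the other way.

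Extra intervals, those in the extended gene other than its own promoter interval or, without a listed start, its gene-end intervals, occurred at 68 of 72 members (94.4%), against 83.2% of all autosomal protein-coding genes and 73.7% of genes of similar length. Mitochondrial ribosomal protein genes had them in 73 of 78 (93.6%). The members without any were Rpl29, Rpl37, Rps27 and Rps29. The median member had 3, against 5 for all genes, whose median length is 17491 bp against 3179 bp, and 2 for genes of similar length. Most were found at Rpl31 and Rps14, with 7 each, then at Rpl11, Rpl19, Rpl22 and Rpl24, with 6 each, and at Rpl13 and Rpl26, with 5 each, a number that other members share. Of the 7 at Rpl31, 5 lay inside its neighbour Tbc1d8. At Rps14 and Rpl11 none lay in or at another protein-coding gene.

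**Figure D5:**
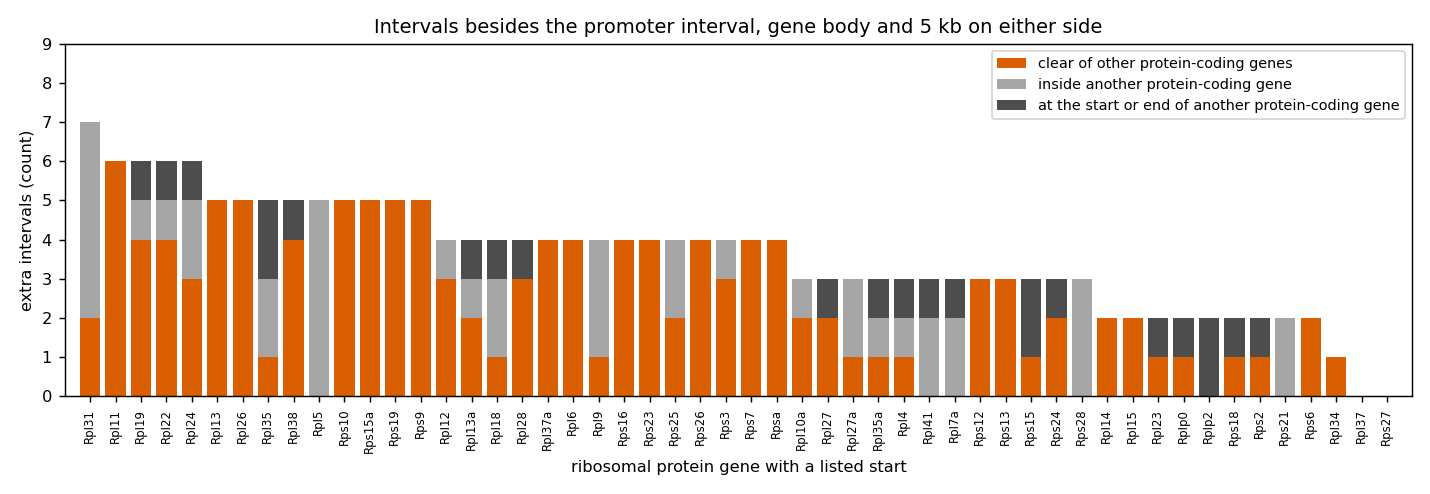
Number of extra intervals (vertical axis) per gene (horizontal axis) within the gene and 5 kb on either side, for the 52 members with a listed start, split into those clear of other protein-coding genes, those inside another gene and those at another gene's start or end. Rpl31 has 7, and Rpl37 and Rps27 have none.

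Extra intervals were mostly narrow. Over 227 pairs of a member and an extra interval the median width was 323 bp (quartiles 188 and 766), close to the median of 336 bp over the whole list, against 1084 bp for the 85 own intervals. Inside member genes lay 45, with a median of 222 bp, and in the flanks 182, with 405 bp. The 28 at the start or end of another protein-coding gene had a median of 1239 bp, a promoter-like width, 50 lay inside another gene only, and the 149 clear of other genes had 276 bp. In 56 members at least 1 extra interval was clear of other protein-coding genes, and in 12 all of them were at or inside another such gene. For these counts no share over all genes is given here. In Rpl24, for example, 3 narrow intervals of 131 to 434 bp followed the promoter within the gene, and the widest extra interval, 2007 bp, lay at the start of Zbtb11.

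A wide extra interval did not always overlap another protein-coding gene. Overlap of extra intervals with non-coding genes was not examined. At Rpsa an interval of 2675 bp at chr9:120133115-120135789 lay 746 bp beyond the gene and was wider than the promoter interval, 1147 bp. In 40 of 72 members the own interval was the widest of the window, a count for which no share over all genes is given here. By contrast, the widest extra interval at Rpl19, 2461 bp, held the start of Cacnb1.

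The far end of the gene was often accessible too. An interval lay within 1 kb of the end annotated as the gene's 3′ end in 34 of 52 members (65.4%). The share was 36.4% for all genes, 31.2% for genes of similar length and 46.4% for mitochondrial ribosomal protein genes. It was 57.9% for ribosome biogenesis genes (11 of 19) and, above the members, 78.6% for other TOP mRNA genes (11 of 14). Among genes with a promoter interval it was 64.7% for members, 35.9% for genes of similar length and 43.9% for all genes. In the 34 members the median of the widest far-end interval was 373 bp, and 11 reached 600 bp. In 4 it held the start of another gene, among them Gcn1 beyond Rplp0 and Zc3h10 beyond Rpl41. For Rps6, Rpl11 and Rpl38 the far-end interval was 222, 254 and 253 bp wide.

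By length, intervals covered a median of 20.4% of the members' extended windows (quartiles 17.9 and 25.1), against 10.1% for all genes, 13.9% for genes of similar length and 13.9% for mitochondrial ribosomal protein genes. They numbered 3.19 per 10 kb of window, against 1.87, 2.16 and 2.24. A protein-coding neighbour lay in the window of 56 of the 72 members, and its own intervals are part of these values. The share of all genes with such a neighbour is not given here. How far neighbours account for the difference was not tested.

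Small nucleolar RNA genes, found by Snora, Snord or Scarna symbols, lay within 21 members, 31 such genes in all, with 4 in Rpl13a and 3 in Rpl23a. These RNAs guide chemical changes of rRNA and are cut from introns. The promoter intervals of host members had a median width of 1145.5 bp (14 genes with a listed start), and those of the others 1115 bp (37 genes). A host whose small nucleolar RNA genes are not listed under such symbols would count among the others.

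The pseudogenes named after the members were seldom accessible. Of 280 autosomal ribosomal protein pseudogenes 10 (3.57%) had an interval over the body, against 312 of 4025 other pseudogenes of similar length (7.75%). None of the 10 lay inside a protein-coding gene, although 70 of the 280 do. The widest interval was the 1454 bp one at Rpl7a-ps8, followed by 901 bp at Rpl21-ps7 and 795 bp at Rpsa-ps3. Reads that match a gene and its copies equally well cannot be placed with certainty. The sources used here do not say how such reads were treated, and their part in these counts was not tested.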

How the data were processed

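The authors deposited 1 annotated table of consensus intervals over all 6 libraries. Per the file headers, HOMER's annotatePeaks was run with GENCODE vM23 gene models on the GRCm38.p6 assembly. The submitters' processing notes name BWA, MACS2 and DESeq2. Versions, thresholds, and whether peaks were called per library or on pooled reads are not given in the sources used here. Positions are 1-based, peak scores are 0 throughout, and no per-sample column exists in the table, so no depth or normalization applied.

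Genes came from the RefSeq gene table and starts from the RefSeq promoter table, both GRCm38.p6, with the first listed start used for distances. A promoter interval overlapped the 300-base window of any listed start by at least 1 bp. Genes of similar length were those between the members' length quartiles, 2521.5 and 4383 bp. Similar-length pseudogenes spanned 359 to 1027 bp. Motifs were searched on both strands, the TOP-like tract on the sense strand. No tests were run. The scripts (Python 3.11.15, numpy 2.4.6, pandas 2.3.3) were tested on simulated intervals. Named genes were those without a promoter interval, the 6 widest and 6 narrowest, the 8 with most and those with no extra intervals, those reaching another gene, stalk, Rpsa and Diamond-Blackfan genes, Rps6, Rps14, Rpl10a and Rpl38. Other names were added after values were seen. The members and lists were chosen with earlier results of these data known. Other windows, width minimums and motif settings were tried. Some items are not reported here.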

Additional observations from a re-analysis of the deposited data

How the results depend on the processing

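The count of members with a promoter interval stayed between 51 and 52 of 52 with the start base alone, 1 kb on either side of the start, a width minimum of 300 or 600 bp, or an overlap of at least 100 bp. The median promoter width ran from 1119 to 1183 bp over the alternatives tried. Members with extra intervals numbered 32 without an extension, 54 with 2 kb, 72 with 10 kb, 63 with intervals of at least 300 bp and 56 when those at or inside another gene were left out. The windows held 120 intervals without an extension, 203 with 2 kb, 489 with 10 kb and 196 of at least 300 bp, as their construction implies. On the sense strand alone, ETS cores were in 18 members and CGCG elements in 7. In the 100 bases before the start they were in 15 and 7. YY1 sites went from 9 members to 4 on the sense strand and 6 in the 100 bases, and TATAAA from 3 to 0 in the 100 bases. The first listed start alone, the tract at the start base and the medians without shared intervals were chosen after seeing the data. No paired analysis was possible because the table has no value per library, and for the same reason no library could be left out. Depth, signal and differences between groups were not analysed here, and width is no measure of signal.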
